A study of Mus musculus with 2 samples.

Results

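The genes of granulocyte-macrophage colony-stimulating factor (GM-CSF), macrophage colony-stimulating factor (M-CSF) and Pparg were followed through the cell types of the fetal mouse lung. The 10 genes were taken by name from the gene tables of both libraries, out of 32285 gene features: Csf2, Csf2ra, Csf2rb, Csf2rb2, Csf1, Csf1r, Il34, Pparg, Cebpb and Bhlhe41. All 10 had at least 1 unique molecule (UMI) in each library. Wild-type mothers aged 6 to 8 weeks received alum in PBS, with or without ovalbumin (OVA), by intraperitoneal injection on days -21 and -7, and were bred to untreated males. They then received OVA or PBS intranasally every 2 to 3 days from gestation day 4 to 17, and the fetal lungs were taken on day 18. Both groups thus share the alum and the intranasal dosing, and OVA distinguishes them. Each group was 1 library of nuclei from pooled fetuses of 1 litter (9 fetuses for PBS and 8 for OVA). The nuclei came from a mixture of sorted CD45+ Lin- ST2+ cells (group 2 innate lymphoid cells, ILC2s), CD45+ cells and EpCAM+ cells. Stromal cells are outside these sort gates, yet fibroblasts formed the largest gated type, with 12.2% of the kept nuclei in PBS and 16.5% in OVA.

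GM-CSF, encoded by Csf2, binds a receptor made of a specific alpha chain (Csf2ra) and a beta chain (Csf2rb) that the receptors for IL-3 and IL-5 also use. In the mouse, Csf2rb2 encodes a second beta chain that serves IL-3. M-CSF (Csf1) and interleukin-34 (Il34) are separate ligands of 1 receptor, Csf1r, a tyrosine kinase on which most tissue macrophages depend. Around birth, GM-CSF in the lung turns on Pparg, a nuclear receptor that governs lipid handling, in fetal monocytes that become alveolar macrophages. Cebpb and Bhlhe41 encode transcription factors that alveolar macrophages also need.

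The bases just before the transcription start are shown for the ligand gene, for an alpha and a beta chain of the receptor family, and for the Pparg start whose accessibility differed between cell types. They come from the RefSeq promoter table (GRCm38.p6), which held 9 starts of 7 of the 10 genes; Csf2rb, Il34 and Csf1r were not among them. Each sequence is the 250 bases before the RefSeq start, read 5′ to 3′ on the gene's own strand. For Csf2 this start lies upstream of the gene start used for its position and peaks here (54249667). The bases next to that gene start are thus not printed. Capitals mark every match, on either strand, to 8 short motifs: GAGGAAG (PU.1 core), TTGCNNAA (C/EBP core), AGGTCA (nuclear receptor half-site), CACGTG (E-box), AGATAA (core of GATA factors), TGANTCA (AP-1 site), GGAANTTCC (NF-kB site) and TTCNNNGAA (STAT site).
Csf2, chr11:54249900-54250149, minus strand: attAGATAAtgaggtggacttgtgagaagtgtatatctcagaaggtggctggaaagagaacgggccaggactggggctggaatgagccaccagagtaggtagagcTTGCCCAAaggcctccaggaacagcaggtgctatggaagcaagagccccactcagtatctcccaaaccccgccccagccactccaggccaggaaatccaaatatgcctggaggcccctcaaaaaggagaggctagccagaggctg
Csf2ra, chr19:61228419-61228668, minus strand: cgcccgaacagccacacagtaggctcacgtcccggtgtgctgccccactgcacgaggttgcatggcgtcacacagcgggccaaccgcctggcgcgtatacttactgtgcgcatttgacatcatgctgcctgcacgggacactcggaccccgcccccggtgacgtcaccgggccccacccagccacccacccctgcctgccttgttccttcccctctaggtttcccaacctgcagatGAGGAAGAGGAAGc
Csf2rb2, chr15:78305722-78305971, minus strand: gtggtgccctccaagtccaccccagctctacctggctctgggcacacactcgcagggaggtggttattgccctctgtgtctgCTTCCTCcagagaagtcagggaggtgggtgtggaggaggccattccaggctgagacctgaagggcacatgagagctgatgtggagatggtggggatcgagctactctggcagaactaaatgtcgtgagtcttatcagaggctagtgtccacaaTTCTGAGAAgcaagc
Pparg start at 115422066, chr6:115421816-115422065, plus strand: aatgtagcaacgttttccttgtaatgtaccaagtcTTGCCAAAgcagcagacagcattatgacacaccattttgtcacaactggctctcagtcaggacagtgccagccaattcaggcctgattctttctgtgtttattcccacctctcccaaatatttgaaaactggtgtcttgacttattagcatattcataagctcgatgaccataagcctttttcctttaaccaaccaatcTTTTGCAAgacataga
The Csf2ra stretch ended in 2 overlapping PU.1 cores, and the Csf2rb2 stretch held 1 on the opposite strand and a STAT site. This internal Pparg start had a C/EBP core on each strand, and Csf2 had 1 C/EBP core and 1 GATA core. Among 32851 promoters of this length in the table, 10.6% held a PU.1 core, 9.56% a C/EBP core, 9.99% a GATA core, 7.02% a STAT site, 14.02% the nuclear receptor half-site, 6.02% the E-box, 6.75% the AP-1 site and 0.813% the NF-kB site. These are matches of letters, and binding was not measured.

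The libraries held 8019 (PBS) and 5960 (OVA) barcodes with 11473351 and 13774959 gene UMIs and with 66520943 and 51197323 transposition counts over their peaks. The mitochondrial share of UMIs was 45.2% in PBS and 29.2% in OVA. Filtering and doublet removal left 4279 and 4996 nuclei with medians of 1129 and 1838 UMIs, and 54 barcodes occurred in both libraries, 30 of them among kept nuclei of both. A nucleus was gated as a type when it held at least 2 different markers of that type and at least 2 times as many of its marker UMIs as of any other type's, which placed 53.9% and 62.3% of the nuclei. None of the 10 genes was a marker. With 1 library per group there was no test between PBS and OVA, and the 95% intervals given here are exact and cover counting error only.

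Genes that the gating had not used also marked the gates. Calca and Ret were among the leading genes of the ILC2 gate, Ms4a8a and Wfdc17 of the macrophage gate, Mcpt4, Tpsb2 and Cma1 of the mast cell or basophil gate, and Lyz1 and Hc of the type 2 alveolar (AT2) gate. The ILC2 gate held 329 and 495 nuclei (PBS and OVA), the macrophage gate 313 and 550, the monocyte gate 62 and 120, and the mast cell or basophil gate 47 and 82. There were 452 and 305 AT2, 242 and 310 type 1 alveolar (AT1), 521 and 825 fibroblast, 157 and 171 myofibroblast or smooth muscle and 86 and 119 pericyte nuclei. Levels are UMIs summed over a gate and divided by all its gene UMIs (CPM), and they are not divided by gene length, so a gene is compared between cells and not with another gene.

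Csf2 was found in ILC2s and AT2 cells and at 0 in the other 7 gates. ILC2-gated nuclei held 4 UMIs in 2 of 329 PBS nuclei (11.9 CPM, interval 3.24 to 30.5) and 9 UMIs in 6 of 495 OVA nuclei (12.2 CPM, 5.56 to 23.1). AT2-gated nuclei held 3 UMIs in 3 of 452 nuclei (3.23 CPM) and 4 UMIs in 4 of 305 (4.37 CPM). The ILC2 level was above the AT2 level in both libraries, but the intervals of the ratio included equality in each (log2 1.88, -0.68 to 4.65, and 1.47, -0.37 to 3.63). Macrophages gave 0 of 313 and 0 of 550 nuclei, which allows shares of nuclei with a UMI of up to 0.958% and 0.545%. As levels, the intervals of ILC2s and macrophages (0 to 6.01 CPM in PBS and 0 to 2.47 CPM in OVA) overlapped in PBS and did not overlap in OVA. The shares of ILC2 nuclei with a UMI were 0.608% (0.0737 to 2.18%) and 1.21% (0.446 to 2.62%). There were 23 Csf2 UMIs in all kept nuclei, and 3 of them lay outside the ILC2 and AT2 gates.

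Il34, the second ligand of Csf1r, had its highest level in AT2 cells in both libraries. AT2-gated nuclei held 84.0 CPM (78 UMIs, 66.4 to 105) in PBS and 103 CPM (94 UMIs, 83.0 to 126) in OVA. Pericytes came next with 52.5 CPM (6 UMIs) and 57.5 CPM (14 UMIs), and the step from AT2 to pericytes had an interval that included equality in PBS (log2 0.68, -0.51 to 2.17) and lay just above it in OVA (0.84, 0.02 to 1.76). AT1 cells were at 25.9 CPM (16 UMIs) in PBS and 7.46 CPM (6 UMIs) in OVA, a ratio of OVA to PBS of -1.80 on the log2 scale (-3.44 to -0.37). Macrophages, which carry the receptor, gave 0 Il34 UMIs in PBS and 5 in OVA (3.35 CPM).

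Csf1 was sparse in every structural gate. Mast cell or basophil nuclei held 3 UMIs (53.9 CPM) in PBS and 23 UMIs (166 CPM, 105 to 249) in OVA, and in OVA this exceeded the next gate by 3.08 on the log2 scale (1.81 to 4.54). Fibroblasts held 3 UMIs (3.66 CPM) in PBS and 35 UMIs (17.0 CPM) in OVA, a log2 ratio of 2.21 (0.55 to 4.56). Different clusters made up the fibroblast gate in each library, however: cluster 1 (led by Bmp8a and Wnt2) held 54.1% of it in PBS and 18.2% in OVA, and cluster 3 (Cemip and Col25a1) 23.0% and 70.1%. Csf1 was 5.56 and 13.7 CPM in cluster 1, from 4 and 6 UMIs, and 2.21 and 17.4 CPM in cluster 3, from 1 and 39 UMIs. Myofibroblasts or smooth muscle held 13.4 and 19.7 CPM and pericytes 17.5 and 8.22 CPM, from 2 to 7 UMIs each, and their intervals overlapped. Pericytes, fibroblasts and myofibroblasts are stromal cells outside the sort gates, so how well these nuclei stand for those cells in the lung was not tested. Macrophages gave 1 Csf1 UMI in each library.

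**Figure D1:**
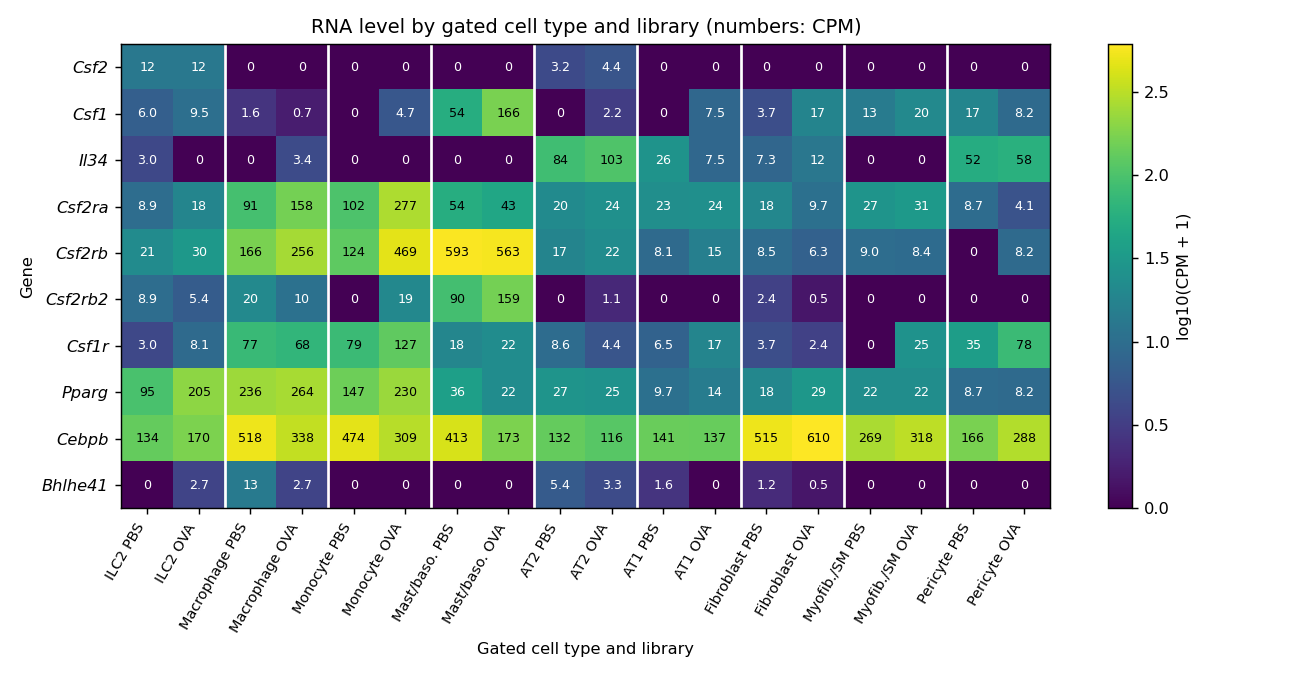
RNA level of the 10 genes (rows) in 9 gated cell types, with PBS and OVA as neighbouring columns, the CPM printed in each cell and the colour on a log10(CPM + 1) scale (yellow is high). Pparg and Csf2ra are brightest in the macrophage and monocyte columns, Csf2rb in the mast cell or basophil columns, Il34 in AT2 (84.0 and 103 CPM), and Csf2 is above 0 only in ILC2 and AT2.

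The alpha chain Csf2ra was a gene of monocytes and macrophages. Monocytes held 102 CPM (9 UMIs) in PBS and 277 CPM (59 UMIs) in OVA, and macrophages 91.2 CPM (56 UMIs) and 158 CPM (236 UMIs). The 2 gates did not differ beyond counting error in PBS (log2 0.15), and monocytes were higher in OVA (0.80, 0.37 to 1.22). Mast cells or basophils followed with 53.9 and 43.3 CPM, and the other 6 gates lay between 4.11 and 30.9 CPM.

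The common beta chain Csf2rb was highest in mast cells or basophils, which also respond to IL-3. They held 593 CPM (33 UMIs) and 563 CPM (78 UMIs), and a UMI was seen in 44.7% and 53.7% of these nuclei. Macrophages held 166 and 256 CPM, and monocytes 124 and 469 CPM, so that the mast cell gate stood above the next gate in PBS (log2 1.84, 1.22 to 2.42) but not beyond counting error in OVA (0.27, -0.18 to 0.71). ILC2s held 20.8 CPM (7 UMIs) and 29.7 CPM (22 UMIs, 18.6 to 45.0). AT2 cells, outside the blood lineage, held 17.2 CPM and 21.9 CPM (13.4 to 33.8), and fibroblasts 8.55 CPM and 6.31 CPM (3.36 to 10.8), so that in OVA the ILC2 interval overlapped that of AT2 cells and lay above that of fibroblasts. The share of ILC2 nuclei with a Csf2rb UMI was 1.52% and 2.22%, against 2.43% and 5.57% of AT2 nuclei at median depths of 849 and 1265 (ILC2) and 1356 and 2015 UMIs (AT2).

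Csf2rb2 was also highest in mast cells or basophils. Mast cells or basophils held 89.9 CPM (5 UMIs) and 159 CPM (22 UMIs), macrophages 19.5 CPM (12 UMIs) and 10.1 CPM (15 UMIs), and monocytes 0 and 18.7 CPM (4 UMIs). AT2 nuclei gave 0 and 1 UMI. Csf2rb (chr15:78325752-78353847, plus strand, mm10) and Csf2rb2 (chr15:78282507-78305721, minus strand) are neighbouring copies of 1 gene with similar sequence, so how reads were divided between them is uncertain.

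Csf1r was highest in monocytes and macrophages in PBS, and in monocytes, pericytes and macrophages in OVA. Monocytes held 79.0 CPM (7 UMIs) and 127 CPM (27 UMIs), macrophages 76.5 CPM (47 UMIs) and 67.7 CPM (101 UMIs), and pericytes 35.0 CPM (4 UMIs) and 78.0 CPM (19 UMIs). The pericyte ratio to all other gated nuclei included equality in PBS (log2 0.97, -0.95 to 2.39) and not in OVA (1.70, 0.94 to 2.39). Monocytes and macrophages were within counting error in PBS (log2 0.04), and the step from monocytes to the next gate in OVA was 0.70 (-0.20 to 1.63). AT2, AT1, ILC2 and fibroblast nuclei held 17.4 CPM or less in either library.

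Pparg was highest in macrophages, followed by monocytes and ILC2s. Macrophages held 236 CPM (145 UMIs, 199 to 278) in PBS and 264 CPM (393 UMIs, 238 to 291) in OVA, with a UMI in 28.8% and 39.1% of nuclei. Monocytes held 147 CPM (13 UMIs) and 230 CPM (49 UMIs), and the step from macrophages was within counting error (log2 0.69, -0.13 to 1.63, and 0.20, -0.23 to 0.66). The monocyte gate also held nuclei of macrophage clusters, however. In the monocyte cluster led by Slfn4, Pparg was 97.1 and 114 CPM. The macrophage cluster led by Nrg4 held 225 and 271 CPM. On the log2 scale the first stood at -1.21 (-2.38 to -0.23) and -1.25 (-1.87 to -0.68) against the second. ILC2s held 95.3 CPM (32 UMIs, 65.2 to 135) and 205 CPM (152 UMIs, 174 to 241), in 29 of 329 and 97 of 495 nuclei. The 3 gates could not be separated in PBS from the gates next to them, while in OVA the ILC2 level stood above the gate that followed by 2.82 on the log2 scale (2.38 to 3.27). AT2 cells, which were sequenced more deeply, held 26.9 and 25.1 CPM and mast cells or basophils 36.0 and 21.7 CPM.

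Macrophage markers were low in the ILC2 gate, and their part in its Pparg level was not tested. The 11 macrophage markers summed to 104 and 84 CPM in ILC2-gated nuclei and to 2176 and 2170 CPM in macrophage-gated nuclei. Csf2ra, which macrophages held at 91.2 and 158 CPM, stood at 8.93 and 17.6 CPM in ILC2s. After each nucleus was thinned to 500 UMIs of nuclear genes, Pparg was found in 11 of 155 ILC2 nuclei in PBS and 51 of 421 in OVA (7.10% and 12.1%), and in 2% of 350 and 1.05% of 285 AT2 nuclei.

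Cebpb, a leucine zipper factor used by many cells, was the broadest of the 10. Macrophages held 518 CPM in PBS and 338 CPM in OVA, fibroblasts 515 and 610 CPM, and monocytes 474 and 309 CPM. Macrophages and fibroblasts were at the same level in PBS (log2 0.01, -0.21 to 0.22), and fibroblasts were higher in OVA by 0.85 (0.70 to 1.00). AT2 cells had the lowest level, 132 and 116 CPM, with ILC2s at 134 and 170 CPM. Bhlhe41 had 42 UMIs in all kept nuclei. Of these, macrophages held 8 in PBS (13.03 CPM) and 4 in OVA (2.68 CPM), AT2 cells 5 and 3, and monocytes, mast cells and pericytes 0.

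Among the 8 gates with at least 50 nuclei in each library, 5 of the 10 genes had the same highest gate in both: ILC2 for Csf2, monocyte for Csf2ra and Csf1r, AT2 for Il34 and macrophage for Pparg. With the mast cell or basophil gate added, an alternative chosen after the data were seen, the number was 8. Against all other gated nuclei, 4 genes were at least 2-fold higher in macrophages in both libraries (Csf2ra, Csf2rb, Csf1r and Pparg), where 7.14% of 11406 genes were. Macrophage log2 ratios to the other gated nuclei were 2.08 and 2.38 for Csf2ra, 2.82 and 2.48 for Csf2rb, 3.22 and 2.13 for Csf1r and 2.90 and 2.27 for Pparg. The same 4 passed in monocytes, beside 4.51% of all genes. Mast cells or basophils had 3 (Csf2rb, Csf2rb2 and Csf1; 4.24% of all genes), AT2 cells 1 (Il34; 5.72%) and fibroblasts 1 (Cebpb; 9.43%). ILC2, AT1, myofibroblast and pericyte gates had 0 that passed, since Csf2 fell under the minimum of 50 UMIs; its ILC2 log2 ratios were 3.92 and 4.39 from 4 and 9 UMIs.

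The genes with the most similar pattern over 16 points (8 gates in 2 libraries) were named by Pearson's r of log2(CPM + 1), as a description with no test, since the points share 2 libraries and their depth. For Csf2ra they were Nod2 (r = 0.956), Rnf149 (0.942) and Tfec (0.931), and for Csf2rb Dna2 (0.984), E230029C05Rik (0.963) and N4bp1 (0.960). Pparg was closest to Dennd4a (0.960) and Gnaq (0.9499). Values for Csf1r were lower, with Trem3 (0.857), Rnf213 (0.856) and Gm42659 (0.853), as were those for Il34, with Dlk1 (0.853), Grb14 (0.849) and Slc9a3r2 (0.836). Cebpb was closest to Fn1 (0.899), Sh3pxd2b (0.883) and Arap1 (0.876).

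The OVA and PBS libraries were then compared within macrophages, to see whether receiving cells of fetuses of OVA mothers differed. On the CPM scale both GM-CSF receptor chains were higher in OVA, Cebpb and Bhlhe41 were lower, and Csf1r and Pparg were within counting error. Csf2ra was 91.2 CPM in PBS and 158 in OVA (log2 0.80, 0.37 to 1.24), and Csf2rb 166 and 256 CPM (0.62, 0.30 to 0.95). Pparg gave 0.16 (-0.12 to 0.44) and Csf1r -0.18 (-0.69 to 0.36), while Cebpb gave -0.62 (-0.82 to -0.41). Csf2rb2 gave -0.96 (-2.15 to 0.27) from 12 and 15 UMIs. Bhlhe41 fell from 13.03 to 2.68 CPM on 8 and 4 UMIs (-2.28, -4.46 to -0.38), and -2.51 with nuclear-gene totals.

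The scale of these ratios depended on the mitochondrial share, which was 47.7% in PBS and 38.7% in OVA macrophages. Taken over all genes that reached 100 UMIs in macrophages, the median log2 ratio was 0.43, and 0.20 when UMIs were divided by nuclear-gene UMIs alone. Relative to the 0.43, Csf2ra stood at 0.37 (-0.06 to 0.82) and Csf2rb at 0.19 (-0.12 to 0.52), so neither differed from the middle gene beyond counting error. Cebpb stood at -1.04 (-1.25 to -0.83) and Pparg at -0.27 (-0.55 to 0.02), and the direction of Pparg turned with the centring. Csf1r, within counting error on the CPM scale, stood at -0.60 (-1.12 to -0.07), below the middle gene. Csf2rb2 stood at -1.38 (-2.58 to -0.16), from 12 and 15 UMIs. Of the 5 genes with at least 50 macrophage UMIs (Csf2ra, Csf2rb, Csf1r, Pparg and Cebpb), 0 were at least 2-fold higher and 0 at least 2-fold lower, where 7.41% and 0.788% of 4316 genes were.

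**Figure D2:**
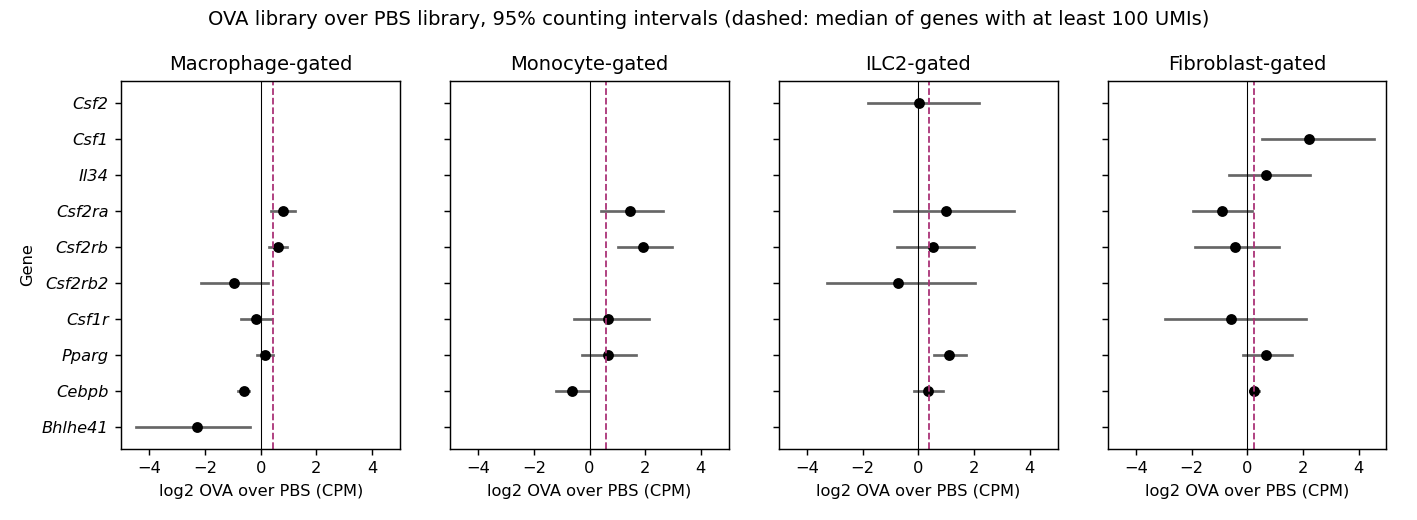
Log2 ratio of OVA to PBS levels (points) with exact 95% counting intervals (bars) in macrophage, monocyte, ILC2 and fibroblast gates, for genes of the 10 with at least 3 UMIs in each library; the dashed line is the median ratio of well-counted genes (100 UMIs or more) in that gate. In macrophages Csf2ra (0.80) and Csf2rb (0.62) lie above equality and Cebpb (-0.62) below it, and in ILC2s Pparg lies at 1.11.

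In monocytes both receptor chains were also higher in OVA on the CPM scale. Csf2ra was 102 CPM in PBS and 277 CPM in OVA (log2 1.45, 0.42 to 2.64) and Csf2rb 124 and 469 CPM (1.92, 1.02 to 2.97), from 9 and 11 UMIs in PBS, beside a median over genes of 0.60. Relative to that median, Csf2ra stood at 0.84 (-0.18 to 2.04), an interval that included equality, and Csf2rb at 1.31 (0.41 to 2.36). The monocyte gate was mixed, since 31 of its 62 PBS nuclei lay in the cluster led by Slfn4 and the rest mainly in macrophage clusters. Within that cluster the ratios, not centred on a median, were 1.00 (0.13 to 1.99) for Csf2ra and 0.87 (0.14 to 1.67) for Csf2rb.

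In ILC2s the Pparg level differed between the libraries beyond counting error. It was 95.3 CPM in PBS and 205 CPM in OVA (log2 1.11, 0.55 to 1.71), 0.87 with nuclear-gene UMIs as the total and 0.71 (0.15 to 1.31) relative to the median of 0.40. Of 2 genes with at least 50 ILC2 UMIs (Pparg and Cebpb), 1 was at least 2-fold higher, where 8.68% of 2616 genes were, and 0 were at least 2-fold lower (0.420%). Cebpb gave 0.34 (-0.16 to 0.87). Csf2 gave 0.03 (-1.81 to 2.18), an interval too wide to show a difference of several fold either way. Macrophage markers were at 104 CPM in PBS and 84 in OVA in this gate, and their part in the result was not tested.

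Elsewhere, Cebpb gave 0.24 (0.08 to 0.41) in fibroblasts, 0.79 (0.04 to 1.61) in pericytes and -1.25 (-2.14 to -0.36) in mast cells or basophils. With nuclear-gene totals the fibroblast and pericyte intervals included equality. In the fibroblast clusters, which the libraries filled unequally, Cebpb gave -0.08 (-0.32 to 0.15) in cluster 1 and 0.18 (-0.02 to 0.38) in cluster 3. Csf2rb was 593 and 563 CPM in mast cells or basophils (-0.07). Its ratio minus that of macrophages was -0.70 (-1.36 to -0.03), and the interval widened for 24 such pairs included 0 (-1.74 to 0.35). Il34 in AT2 cells gave 0.29 and lay near the median of 0.36.

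The macrophage gate was not 1 population, so the 10 genes were also read in clusters built without them. Of 23 clusters, the macrophage gate fell mainly into 4: cluster 0 (led by Slco2b1, Ear2 and Ifitm10), cluster 2 (Nrg4, Fgf13 and Cd86), cluster 9 (Wfdc17, Inhba, Atp6v0d2 and Car4) and cluster 14 (C1qa, Stab1, Pf4 and Mrc1). Cluster 0 held 41.9% of macrophage-gated nuclei in PBS and 13.5% in OVA, and cluster 2 held 23.3% and 62.9%. Clusters 0 and 2 thus separate in part by library.

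The receptor genes divided the clusters. Cluster 14 had the most Csf1r, 435 CPM (24 UMIs) in PBS and 276 CPM (25 UMIs) in OVA, which exceeded cluster 0 by 3.58 (2.78 to 4.35) and 2.25 (1.47 to 3.01) on the log2 scale. It had little Pparg, 72.5 and 33.1 CPM, or Csf2ra, 18.1 and 44.2 CPM. Cluster 9 had 279 and 439 CPM of Csf2rb, 36.5 and 36.8 CPM of Csf2rb2 and 674 and 560 CPM of Cebpb, and it held 10 and 7 of the Bhlhe41 UMIs (33.2 and 17.2 CPM). Clusters 0 and 2 had 230 and 225 CPM of Pparg in PBS and 255 and 271 CPM in OVA.

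**Figure D3:**
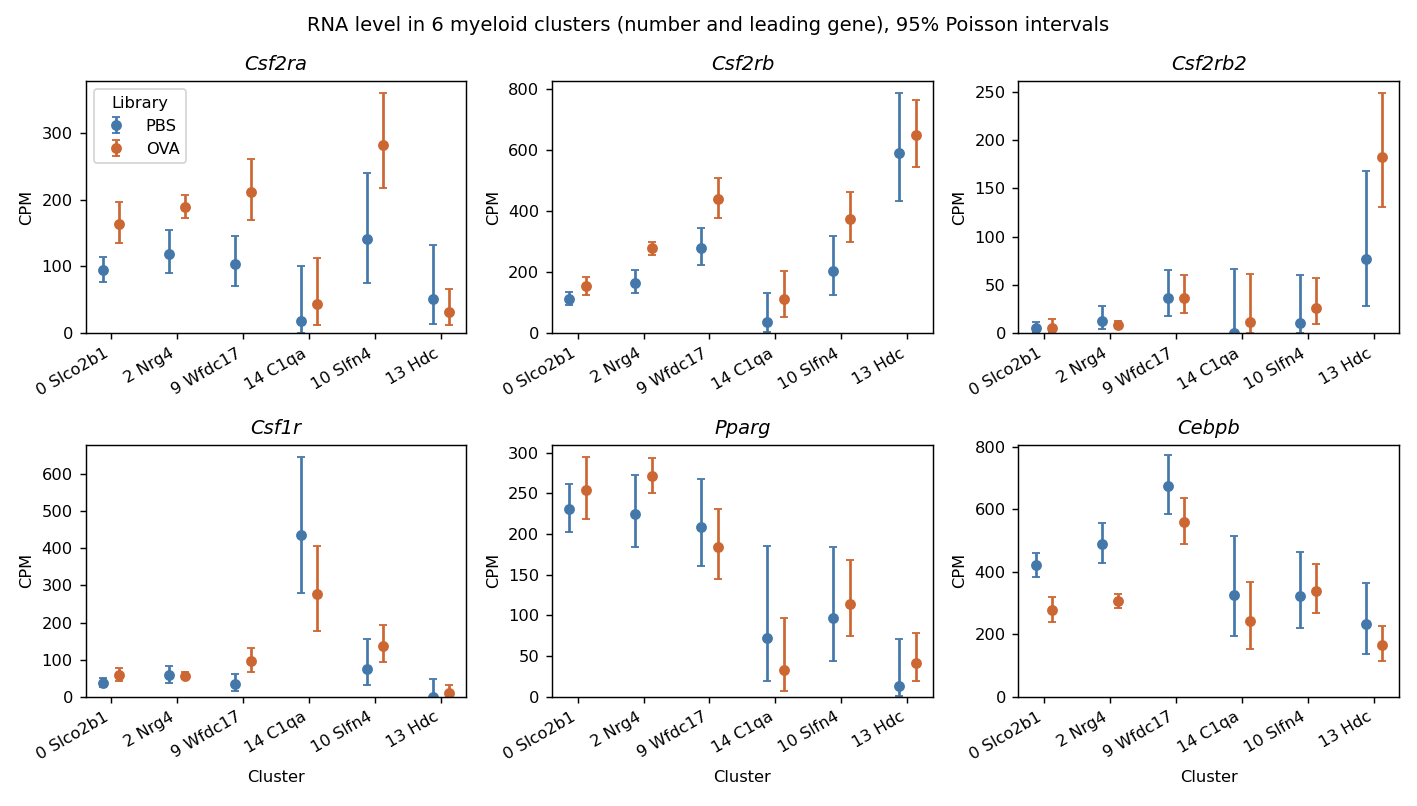
Level of 6 of the genes (CPM, 1 panel each) in 6 myeloid clusters built without these genes, with exact 95% Poisson intervals and 1 colour per library. Csf1r peaks in cluster 14 (435 and 276 CPM), where Pparg is lowest among the macrophage clusters, and Csf2rb peaks in cluster 13, the mast cell or basophil cluster (591 and 649 CPM).

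Within clusters the OVA to PBS ratios, not centred on a median, kept the signs of the gate for the GM-CSF receptor and Cebpb. No median over genes was taken within clusters, so these ratios cannot be set against the middle gene as in the gate. Csf2ra gave 0.80, 0.67 and 1.04 in clusters 0, 2 and 9, Csf2rb 0.45, 0.75 and 0.66, and Cebpb -0.60, -0.68 and -0.27. The Cebpb interval in cluster 9 included equality (-0.55 to 0.01). Csf1r, at -0.18 in the gate, gave 0.67 (-0.01 to 1.35) in cluster 0, -0.03 in cluster 2, 1.53 (0.50 to 2.70) in cluster 9 and -0.66 (-1.52 to 0.21) in cluster 14, so that only the interval of cluster 9 left out equality. Pparg gave 0.15, 0.27 and -0.18.

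Sub-gates by marker genes gave a second view, with alveolar markers (Marco, Ear1, Ear2, Siglecf, Krt79, Chil3 and others) against interstitial markers (F13a1, Lyve1, Cd163, Folr2, Pf4 and others). They held 46 and 70 nuclei in PBS and 54 and 174 in OVA. Csf1r was lower in the alveolar sub-gate, with 55.5 against 168 CPM in PBS (log2 -1.60, -3.20 to -0.24) and 55.5 against 85.7 CPM in OVA (-0.63, -1.85 to 0.43). Cebpb was higher there, with 647 against 368 CPM (0.81, 0.26 to 1.38) and 505 against 310 CPM (0.70, 0.30 to 1.10).

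The Pparg levels of these sub-gates were within counting error of each other, but the direction depended on 1 marker. They were 194 CPM in the alveolar and 248 CPM in the interstitial sub-gate in PBS (log2 -0.35, -1.23 to 0.49) and 240 and 279 CPM in OVA (-0.22, -0.77 to 0.31). Csf2ra gave 0.47 and -0.09. Csf2rb differed in PBS, with 222 against 80.0 CPM (1.47, 0.35 to 2.70), and not in OVA, with 216 against 239 CPM (-0.15, -0.73 to 0.41). Of these 5 genes, 0 were at least 2-fold higher and 0 at least 2-fold lower in both libraries, where 1.95% and 3.03% of 2308 genes were. The interstitial sub-gate rested partly on Dab2, which other macrophages also carry. Without Dab2, an alternative chosen after the data were seen, the sub-gates held 76 and 34 nuclei in PBS and 135 and 44 in OVA. The Csf1r ratios were then -3.05 (-4.49 to -1.72) and -1.71 (-2.57 to -0.84), past 2-fold in both libraries. Pparg turned direction, with 316 against 107 CPM in PBS (1.56, 0.26 to 3.23, from 65 and 5 UMIs) and 232 against 210 CPM in OVA (0.14, -0.55 to 0.90). Csf2rb gave 1.70 (0.06 to 4.03) and 0.21 (-0.42 to 0.90). Cebpb gave 0.52 (-0.19 to 1.30) and 0.56 (-0.02 to 1.17), so that its intervals then included equality in both libraries.

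**Figure D4:**
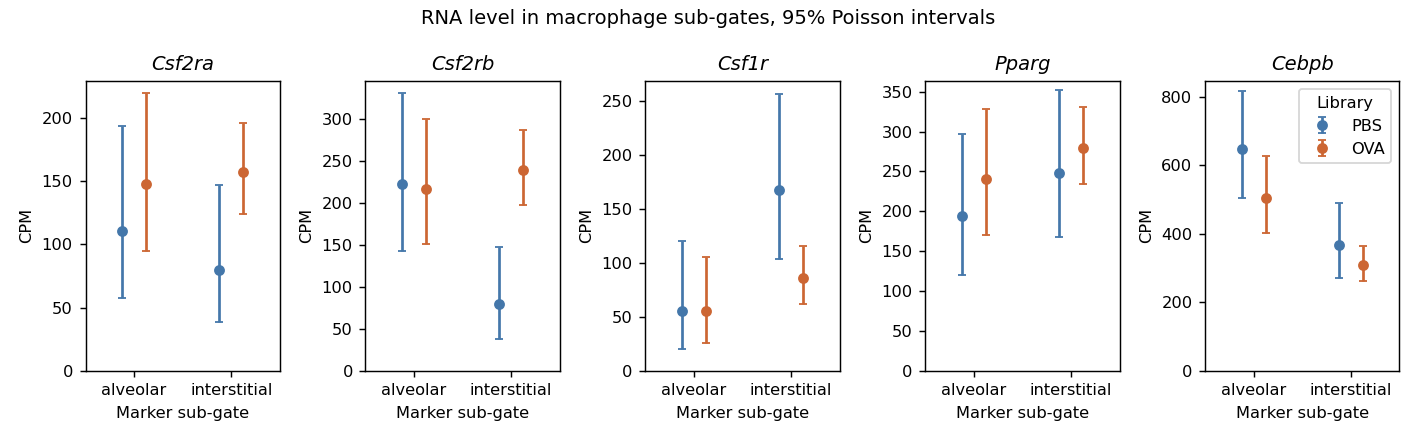
Level of 5 genes (CPM, 1 panel each) in alveolar-marker and interstitial-marker macrophages with exact 95% Poisson intervals and 1 colour per library. Csf1r is lower and Cebpb higher in the alveolar sub-gate in both libraries, and the Pparg intervals overlap.

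Genes of the same pathways were read from fixed lists, in macrophages with at least 50 UMIs over both libraries. Of 15 genes of GM-CSF receptor signalling, 11 were measured and 0 passed 2-fold in either direction. The 11 ratios had a median of 0.60 beside 0.38 for all genes. The highest were Shc1 (0.92), an adaptor, and Lyn (0.85, 0.68 to 1.02), a Src-family kinase that went from 583 to 1048 CPM. The lowest were Ptpn6 (0.17) and Pim1 (0.15). With nuclear-gene totals Ptpn6 was at -0.06 and Pim1 at -0.08. In the list of M-CSF signalling 13 of 14 were measured, and Stap1, an adaptor that binds Csf1r, was 1 gene past 2-fold (1.57, 0.73 to 2.54). Of all 4316 genes measured, 7.41% were at least 2-fold higher. The median of the M-CSF list was 0.23, with Tfec (-0.22) and Pik3cg (-0.33) lowest.

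On the CPM scale the lipid genes gave ratios past 2-fold in both directions. Of 24 genes of PPARG and lipid handling, 16 were measured, with a median of 0.11. Of the 16, 1 was at least 2-fold higher in OVA, near the 7.41% of all 4316 genes that were. At least 2-fold lower were 2 of the 16, where 0.788% of all genes were. Abca1, a cholesterol exporter, went from 244 to 498 CPM (1.03, 0.77 to 1.29), and Abcg1, another exporter, gave 0.59. With nuclear-gene totals Abca1 was at 0.80, under 2-fold. The fatty acid binding proteins Fabp5 and Fabp4 went from 169 to 66.4 CPM (-1.35) and from 61.9 to 14.8 CPM (-2.07). With nuclear-gene totals they were at -1.58 and -2.30. Among 14 transcription factors of macrophages, 9 were measured and 0 passed 2-fold, with Runx1 (0.70) and Bhlhe40 (0.41) highest and Maf (-0.36) and Irf8 (-0.44) lowest. Of 18 related cytokines and receptors 2 were measured, Il1b (0.93) and Il1a (0.17).

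Between the sub-gates, 3 of 12 measured genes of the lipid list were at least 2-fold higher in alveolar-marker macrophages in both libraries. Of all 2308 genes measured, 1.95% were. The 3 lipid genes were Fabp5 (log2 3.75 in PBS and 3.51 in OVA), Car4 (2.59 and 3.98) and Lpl, while Abca1 gave -3.75 and -0.25. In the OVA library the 12 ratios had a median of 0.68 beside 0.04 for all genes. In the M-CSF list Inpp5d, a lipid phosphatase, was lower in both (-1.38 and -1.15), with Tyrobp at 0.74 and 1.04 and Mitf at 1.37 and 0.31. The transcription factor Maf, which other resident macrophages use, was lower in both (-2.55 and -2.76), with Runx1 at -0.66 and -1.24 and Bhlhe40 at 0.45 and 1.37. In the GM-CSF list 0 of 7 passed in both, with Jak2 at -1.60 and -0.15, Bcl2l1 at 1.02 and 0.52 and Lyn at -0.18 and -0.68. Il1b gave -0.21 and 1.39.

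Accessibility in the same nuclei was read from transposition counts in peaks, per 1000000 counts in the 101838 regions found in both libraries. Counts of 1 fragment come in pairs, so the intervals are too narrow. Within 100 kb of their starts, 6 of the 10 genes had more accessibility in the gate with their highest mean RNA level among the 8 ranked gates than in the other gated nuclei, in both libraries, where 39.5% of 14644 genes with at least 10 UMIs in these gates did. They were Csf2 (ILC2), Csf2rb (monocyte), Csf2rb2 and Pparg (macrophage), Csf1 (myofibroblast or smooth muscle) and Il34 (AT2). By gate, 6 genes had more in macrophages (Csf2, Csf2rb, Csf2rb2, Csf1r, Pparg and Cebpb), beside 25.7% of 27407 genes. There were 2 in ILC2s (Csf2 and Csf2ra; 28.6%) and 2 in AT2 cells (Il34 and Bhlhe41; 25.7%). Mast cells or basophils had 6 (Csf2, Csf2ra, Csf2rb, Csf2rb2, Csf1 and Csf1r; 9.95%) and monocytes 5 (Csf2, Csf2rb, Csf2rb2, Pparg and Cebpb; 15.3%). Within 2 kb of the start, 7 genes had more in macrophages, beside 11.0% of 18548 genes, and they included Csf2ra, Csf2rb, Csf2rb2, Csf1r and Pparg. The windows hold other genes, such as Il3 and Acsl6 beside Csf2, Pdgfrb beside Csf1r and Ncf4 beside Csf2rb. Csf2rb and Csf2rb2 lie in each other's 100 kb windows and share most of their regions there. The counts at 100 kb that hold both genes thus count much of the same accessibility for each.

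Pparg (chr6:115360951-115490399, plus strand, mm10) had different open regions in macrophages, ILC2s and AT2 cells. Of 36 regions within 100 kb of its starts, 16 were raised in macrophages in both libraries, 8 of them at least 4-fold, 3 were raised in ILC2s, all at least 4-fold, and 5 in AT2 cells. Of all 101838 regions, 23.4% were raised in macrophages, 13.4% in ILC2s and 14.4% in AT2 cells. The ILC2 and AT2 counts at Pparg thus did not exceed these shares. Its first start was open broadly, with 24.1 and 26.2 counts per 1000000 in macrophages, 31.1 and 21.2 in ILC2s and 26.1 and 23.1 in AT2 cells. The peak at its internal start (position 115422066), whose upstream bases with a C/EBP core on each strand are printed above, lay at chr6:115421476-115422309. There macrophages had 12.8 and 20.4 counts per 1000000 (log2 1.69 and 2.54 over other nuclei) and ILC2s 0 and 3.30.

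The ILC2 regions lay in introns of Pparg. At chr6:115440262-115441270 ILC2s had 51 and 131 counts, or 21.7 and 36.0 per 1000000, against 0 and 0.93 in macrophages (log2 4.78 and 4.66 over all other gated nuclei). At chr6:115481719-115482610 they had 61 and 102 counts, or 26.0 and 28.1 per 1000000 (4.93 and 4.16), and at chr6:115444105-115445256 the ratios were 3.81 and 2.84. Macrophages were raised in other introns, at chr6:115374953-115376149 with 78 and 186 counts (27.6 and 34.6 per 1000000, log2 2.72 and 3.32) and at chr6:115432213-115433114 (3.14 and 3.05). An intergenic region at chr6:115519046-115519960 had 57.8 and 67.7 per 1000000 in macrophages (2.19 and 2.45), and an intron region at chr6:115464316-115465255 was raised in AT2 cells (3.19 and 4.13).

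**Figure D5:**
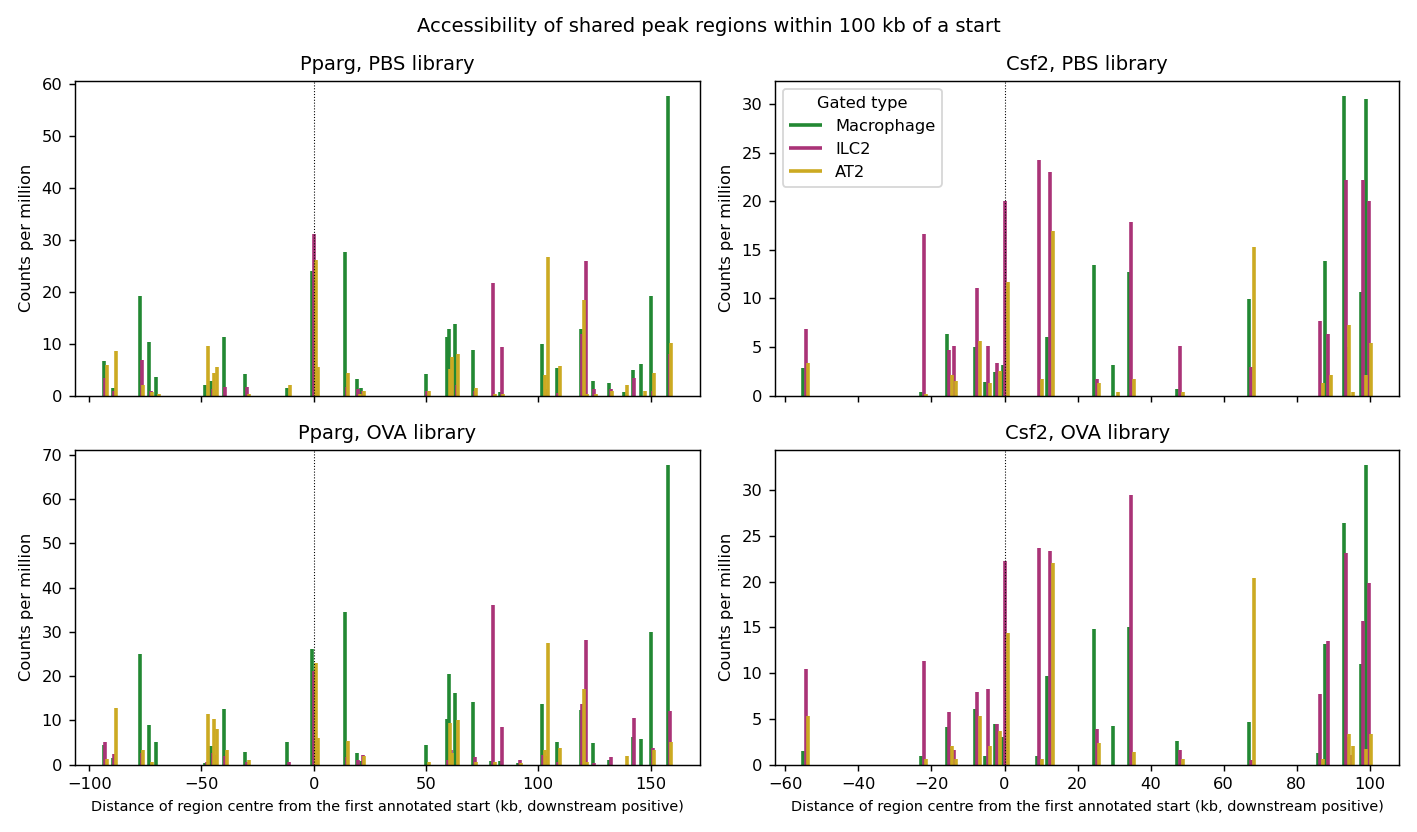
Accessibility (transposition counts per 1000000) of the regions within 100 kb of Pparg and Csf2, in macrophage, ILC2 and AT2 gates of each library, by distance in kb from the first annotated start. For Pparg the ILC2 bar about 80 kb downstream (21.7 and 36.0) stands where macrophages have 0 and 0.93, and for Csf2 the region at the start is open in ILC2s (20.0 and 22.3 per 1000000) and less so in AT2 cells (11.7 and 14.4).

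Accessibility of these windows was also compared between the libraries. Over the Pparg window macrophages had 299 counts per 1000000 in PBS and 363 in OVA (log2 0.28, 0.16 to 0.40), and ILC2s 145 and 175 (0.27, 0.08 to 0.47) beside an RNA ratio of 1.11 in ILC2s. Macrophage ratios were -0.09 (-0.20 to 0.01) for the Csf2ra window, -0.01 for Csf2rb and -0.07 for Csf1r.

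Csf2 (chr11:54247271-54249667, minus strand) lay in a window with 21 regions. Of these, 11 were raised in ILC2s in both libraries (4 at least 4-fold), 8 in macrophages (3 at least 4-fold), where Csf2 RNA was at 0, and 3 in AT2 cells. Of all 101838 regions, 13.4% were raised in ILC2s, 23.4% in macrophages and 14.4% in AT2 cells. The peak at its start, chr11:54248901-54249959, which reaches into the printed upstream bases, had 20.0 and 22.3 counts per 1000000 in ILC2s (log2 1.89 and 2.26 over other nuclei) and 11.7 and 14.4 in AT2 cells (1.03 and 1.20). Macrophages had 3.19 and 2.97, and mast cells or basophils 3.76 and 27.1, a gate in which Csf2 RNA was at 0. A region at chr11:54239701-54240640 had 57 and 86 counts (24.3 and 23.7 per 1000000, log2 5.18 and 4.87), and another lay at chr11:54271282-54272278 (4.39 and 2.89). Over the whole window ILC2s had 226 and 235 per 1000000. AT2 cells were raised at chr11:54181525-54182575 (2.07 and 2.96).

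The receptor genes had open starts in myeloid cells. The Csf2ra peak at chr19:61228195-61228964 covers the printed bases with their PU.1 cores, and it had 26.6 and 33.6 per 1000000 in macrophages (log2 1.30 and 1.92), 48.3 and 47.9 in monocytes (2.01 and 1.91) and 8.95 and 7.15 in ILC2s. The wider Csf2ra window (gene at chr19:61223957-61228429) had 575 and 567 counts per 1000000 in ILC2s, of which the region chr19:61266390-61267269 gave 366 and 355. The Csf2rb2 start peak had 11.3 and 11.2 per 1000000 in macrophages (2.04 and 2.66) and 1.704 and 2.20 in ILC2s. At the Csf2rb start macrophages had 24.5 and 25.1 per 1000000 (2.13 and 2.77). Mast cells or basophils were raised at chr15:78267552-78268672 (2.98 and 3.06) and chr15:78278021-78279035 (3.67 and 2.04), between Ncf4 and Csf2rb2.

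Ligand genes had their own regions. Il34 (chr8:110741829-110805924) had AT2 regions in its introns at chr8:110804789-110805578 (135 and 85 counts, log2 3.23 and 4.88) and chr8:110792526-110793436 (190 and 161 counts, 3.14 and 4.06). Csf1 (chr3:107741048-107760469) had a region raised in mast cells or basophils at chr3:107818744-107819709 (3.56 and 2.81), the gate with its highest RNA level. Upstream of Csf1, 4 regions between chr3:107772484 and chr3:107783937 were raised over 4-fold in macrophages, where Csf1 RNA was 1 UMI in each library. In its whole window 6 of 27 regions were raised in macrophages in both libraries, near the 23.4% of all regions. Bhlhe41 (chr6:145858243-145865558) had an ILC2 region at chr6:145924560-145925483 (4.71 and 4.18) and an AT2 region at chr6:145884761-145885630 (3.06 and 3.60), and its RNA in ILC2s was 0 UMIs in PBS and 2 in OVA. Around Cebpb (chr2:167688915-167690418), 25 of 46 regions were raised in macrophages in both libraries, where 23.4% of all 101838 regions were. Of the 25, 10 were raised over 4-fold, the nearest at chr2:167686094-167687243 (2.46 and 2.23).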

How the data were processed

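The authors sorted, mixed and lysed cells of E18 lung, made 10x Multiome libraries (RNA and accessibility of the same nuclei) and processed them with Cell Ranger ARC 2.0.1 on mm10. The deposited values are counts: UMIs per gene and transposition counts per peak for each barcode, with peaks called in each library.

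Barcodes were kept if they had 200 genes or more and if no more than 60% of UMIs were mitochondrial. Doublets were removed by a nearest-neighbour score against simulated doublets (2 per nucleus), at 0.8% per 1000 barcodes, which took 293 PBS and 250 OVA nuclei. Types were gated by 22 marker lists, and levels of 8 types with at least 50 nuclei in each library were ranked. Clusters (scanpy 1.11.5, leidenalg 0.10.2; 3000 variable genes, 30 components, 15 neighbours, resolution 1) left the 10 genes out. Intervals were exact (95%): Poisson for sums, Clopper-Pearson for shares, conditional binomial for ratios. Nuclei are not replicates, so no p-value was computed. Gene positions are those of GENCODE M21 on mm10. Regions were peaks that overlapped between libraries, and they held 94.6% (PBS) and 97.7% (OVA) of peak counts. A region was raised where the interval of the ratio to all other gated nuclei lay above equality in both libraries. The share of all regions raised at least 4-fold was not computed, so the counts of such regions have no share beside them.

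Named genes were the 10, from each pathway list the 2 highest and 2 lowest OVA to PBS ratios in macrophages and the 3 largest sub-gate ratios (minimum 50 UMIs), and the 3 genes most like each of the 10 with at least 100 UMIs. Of the genes this rule names, 2 are not reported here. Lpl, Ms4a8a and other leading genes of gates, clusters and counts were named after their values were seen. The 10 genes, lists and alternatives were chosen with earlier results of these data known. The ratio and interval code was tested on simulated data. Alternatives changed scaling, filters, gates, clusters, thinning and windows. Python 3.11.15, numpy 2.4.6, scipy 1.17.1 and pandas 2.3.3 were used.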

Additional observations from a re-analysis of the deposited data

Results flagged for a closer look

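The OVA to PBS ratio of 2 genes differed between macrophages and another gate by more than counting error over 24 such pairs allows (intervals widened for 24). With 1 library per group the differences were not tested over libraries. For Csf2ra the fibroblast ratio minus the macrophage ratio was -1.71 on the log2 scale, since Csf2ra went from 18.3 to 9.71 CPM in fibroblasts, from 15 and 20 UMIs, and from 91.2 to 158 CPM in macrophages. The fibroblast level is near the low level of the other non-myeloid gates. Different clusters held most of the fibroblast gate in each library, and Csf2ra went from 12.5 to 6.86 CPM in cluster 1 and from 17.7 to 10.3 CPM in cluster 3.

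For Cebpb the ratio minus the macrophage ratio of -0.62 was 0.96 in ILC2s, 0.859 in fibroblasts, 0.857 in myofibroblasts or smooth muscle and 1.41 in pericytes. Macrophages went from 518 to 338 CPM, while fibroblasts went from 515 to 610 CPM. In fibroblast clusters 1 and 3 it went from 575 to 545 and from 559 to 633 CPM. In the mixed monocyte gate the ratio was also -0.62, but within the cluster led by Slfn4 it was 0.06 (-0.56 to 0.72), from 324 to 339 CPM.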

How the results depend on the processing

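Of 75 alternative values, 70 of them planned, 67 were called unmoved and 8 moved, and 0 turned the sign of a ratio whose interval left out equality. A ratio was called moved when it changed by more than its counting error. Counts of genes have no counting error, and a change of 1 gene was called unmoved. The number of genes with the same highest gate in both libraries was 5, 2 with nuclei thinned to 500 nuclear-gene UMIs, 8 with types taken from clusters and 8 with the mast cell or basophil gate added. In macrophages the log2 OVA to PBS ratio of Csf2ra (0.80) was 1.45 with at least 3 markers for a gate and 0.37 centred on the median. Csf2rb (0.62) was 0.29 thinned and 0.19 centred, and Pparg (0.16, with an interval that includes equality) was -0.27 centred. Between the sub-gates, Pparg (-0.35 in PBS and -0.22 in OVA) was 1.56 and 0.14 without the marker Dab2. The number of genes with more accessibility in the gate of their highest RNA level was 6 and lay between 5 and 7. Which genes these were also changed: the 2 kb window left out Csf2rb and Csf1 and added Csf2ra, Cebpb and Bhlhe41. The cause of these shifts was not tested. No paired analysis was possible because there was only 1 library for PBS and 1 for OVA. Depth limits Csf2 (23 UMIs), Bhlhe41 (42 UMIs) and every ratio of the monocyte gate in PBS, and no alternative replaces a second library.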

Other observations

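Both chains of the GM-CSF receptor were rarely seen in the same nucleus at this depth. With macrophages thinned to 500 UMIs of nuclear genes, Csf2ra and Csf2rb were both present in 4 of 269 PBS nuclei (1.49%, Clopper-Pearson 0.407 to 3.76%) and 17 of 544 OVA nuclei (3.13%, 1.83 to 4.96%), where the product of the separate shares is 1.37% and 2.55%. Csf1r and Pparg were both present in 4 of 269 (1.49%; product 0.929%) and 4 of 544 (0.735%; product 0.852%). In OVA mast cells or basophils Csf2rb was present in 30 of 67 thinned nuclei and Csf2ra in 2.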
